A study of Arabidopsis thaliana with 4 samples.

Results

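SAUR genes (SMALL AUXIN UPREGULATED RNA) encode a large plant family of short proteins whose transcripts respond quickly to auxin. The genes described here are 49 listed SAUR loci of Arabidopsis thaliana, of 79 loci that the TAIR10.1 annotation assigns to the family and of 37686 genes in the expression table. Members were selected on a list of identifiers and on their mean level, and a locus was reported where that mean over the 4 libraries was 1 TPM or more. TPM (transcripts per 1000000) is a read count divided by transcript length and scaled to the same total in every library. Of the 49 listed loci 46 passed this limit, and 43 of them reached a mean of 1 TPM in each of the groups. SAUR51, SAUR5 and SAUR55 passed only through their level at 2 days. The limit was set on the same 4 libraries that are compared below, and the list was drawn up with results of these libraries known, so the counts over the members describe them and support nothing further. Just inside the limit stood SAUR51 with a mean of 1.76 TPM and SAUR55 with 2.12 TPM, and outside it SAUR2 with 0.325 TPM, SAUR70 with 0.175 TPM and SAUR40, which is listed at 0 in all 4 libraries.

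Leaves with part of the petiole were cut from wild-type Col-0 seedlings 12 days old raised at 22 °C on 1/2 MS medium, which contained sucrose, in days of 16 h light and 8 h dark. The first group is the wounded region of explants kept for 2 days in darkness on B5 (a medium for plant tissue culture) that held sucrose (2 libraries), and the second is the same region at time 0, before culture (2 libraries). The wounded region takes in the petiole stump and some tissue around it, so each library mixes cell types, and fewer cells of a type cannot be told apart from less RNA per cell. Time since detachment, light, medium and age differ together between the groups and cannot be told apart. The labels do not say whether the libraries of a group stem from different plants or cultures. The p-values therefore reflect how far these libraries vary, and that variation may be technical.

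The best studied SAUR proteins act on cell expansion. Proteins of the SAUR19 group bind and inhibit type 2C protein phosphatases of clade D at the plasma membrane. These phosphatases otherwise remove an activating phosphate from the plasma membrane H+-ATPases, proton pumps whose activity acidifies and loosens the wall. Many SAUR genes lie in tandem arrays of young duplicates, and their transcription responds to auxin, brassinosteroids, light and temperature as well.

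In the annotation 30 of the 49 listed loci fell into 6 tandem clusters of at least 3 loci whose identifiers follow each other in steps of no more than 30. The clusters are SAUR19-24 on chromosome 5 (6 loci), SAUR26-29 on chromosome 3 (4 loci), SAUR61-68 on chromosome 1 (8 loci), SAUR14-16 on chromosome 4 (3 loci), SAUR50 with SAUR1 to SAUR5 on chromosome 4 (6 loci) and SAUR7, SAUR6 and SAUR12 on chromosome 2 (3 loci). A further 4 loci form 2 pairs, SAUR51 with SAUR52 and SAUR70 with SAUR76, and 15 stand alone among the listed loci. This layout counts listed loci only. The unlisted SAUR54 (AT1G19830) lies within the step limit of SAUR53 (AT1G19840), and the unlisted SAUR73 lies inside SAUR26-29. The unlisted SAUR49 (AT4G34750) and SAUR13 (AT4G38825) likewise lie within the step limit of SAUR50 and SAUR14, at the edges of their clusters. SAUR numbers follow the symbols and synonyms of the reference, which names both AT1G29490 and AT1G29510 SAUR68. AT1G29510 also carries the number 67 and is called SAUR67 here, and another published numbering of SAUR19-24 exists.

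Copies of a cluster differ in how far they have diverged, which bears on whether reads can be told apart between them. Coding sequences of SAUR19-24 were 87.7% to 95.2% identical over 15 pairs, and those of SAUR26-29 77.7% to 86.3% over 6 pairs. In SAUR61-68 identity ran from 45.4% to 89.4% over 28 pairs, and in SAUR14-16 from 50.2% to 59.0% over 3 pairs. The cluster of SAUR50 and SAUR1 to SAUR5 spanned 51.6% to 62.4% over 15 pairs, and that of SAUR6, SAUR7 and SAUR12 40.0% to 51.9% over 3 pairs. To show this divergence, the most conserved gap-free stretch of 60 coding bases of all 30 cluster members follows for a close cluster and for 2 distant ones, 5′ to 3′ on the coding strand of TAIR10.1. In SAUR19 it covers bases 139 to 198 of the coding sequence. Capitals mark bases that differ from SAUR19, the first copy of its cluster.
SAUR19: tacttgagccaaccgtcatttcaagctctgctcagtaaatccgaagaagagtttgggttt
SAUR20: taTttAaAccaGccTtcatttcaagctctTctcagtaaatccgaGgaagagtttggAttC
SAUR21: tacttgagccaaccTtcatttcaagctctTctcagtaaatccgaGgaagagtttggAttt
SAUR22: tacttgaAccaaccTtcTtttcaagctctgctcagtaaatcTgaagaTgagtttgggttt
SAUR23: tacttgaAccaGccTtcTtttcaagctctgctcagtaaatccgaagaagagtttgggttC
SAUR24: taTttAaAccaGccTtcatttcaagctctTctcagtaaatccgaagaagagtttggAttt

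In these 60 bases the other SAUR19-24 copies differ from SAUR19 at 4 to 9 positions. In the cluster of SAUR50 the capitals mark differences from SAUR50, at 19 to 23 positions.
SAUR50: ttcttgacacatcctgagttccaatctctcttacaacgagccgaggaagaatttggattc
SAUR1: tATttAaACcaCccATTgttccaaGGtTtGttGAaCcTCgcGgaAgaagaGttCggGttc
SAUR2: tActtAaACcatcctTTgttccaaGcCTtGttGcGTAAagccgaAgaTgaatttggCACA
SAUR3: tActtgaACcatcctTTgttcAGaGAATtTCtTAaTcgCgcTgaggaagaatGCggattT
SAUR4: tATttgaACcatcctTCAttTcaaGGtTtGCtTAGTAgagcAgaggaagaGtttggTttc
SAUR5: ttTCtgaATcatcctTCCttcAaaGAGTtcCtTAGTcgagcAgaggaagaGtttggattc

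In the chromosome 2 cluster the capitals mark differences from SAUR6, at 15 positions in SAUR7 and 21 in SAUR12.
SAUR6: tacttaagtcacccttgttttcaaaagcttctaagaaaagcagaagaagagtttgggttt
SAUR7: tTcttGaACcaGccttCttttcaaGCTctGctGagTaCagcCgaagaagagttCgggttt
SAUR12: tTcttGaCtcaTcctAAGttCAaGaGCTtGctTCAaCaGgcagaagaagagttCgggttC

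The table gives TPM without counts, so the depth of each library is unknown. Of 19078 genes with a mean of 1 TPM or more, 7485 were higher and 5636 lower at 2 days by limma's test at an adjusted p below 0.05, which is 39.2% and 29.5% of them, or 68.8% together. After quantile normalization the split was 6385 higher and 7187 lower, and after rescaling without the most abundant transcripts 6495 and 6696. The libraries hold leaf tissue: the 4 mesophyll markers summed to 2072 and 2187 TPM at 2 days, against 23172 and 21912 TPM at time 0, and 4 of 4 were lower. The 4 epidermis markers summed to 358 and 309 TPM at 2 days, against 629 and 610 TPM at time 0, with 2 lower and 2 not past the threshold. Guard cell markers summed to 24.5 and 21.9 TPM at 2 days and to 43.4 and 47.3 TPM at time 0, with 2 of 3 lower. Phloem markers summed to 104 and 106 TPM at 2 days and to 98.9 and 93.5 TPM at time 0, and 0 of 2 passed. Xylem markers summed to 54.6 and 56.0 TPM at 2 days and to 88.4 and 90.6 TPM at time 0, with 1 of 2 lower. The trichome marker GL2 had 0.72 and 1.03 TPM at 2 days, against 6.15 and 6.74 TPM at time 0, and was lower. Of the root markers COBL9 was at 0 and 0.01 TPM at 2 days and RHD6 at 0.79 and 2.25 TPM, and both were listed at 0 at time 0. The part of these shifts in the SAUR results was not tested.

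Of the 46 SAUR genes tested, 30 were lower and 14 higher at 2 days, and 2 did not pass, beside 29.5% of all tested genes lower and 39.2% higher. The groups did not overlap in 46 of 46 genes, as in 86.0% of all tested genes. The 2-day libraries lay below in 30 of the 46 and above in 16, beside 37.7% and 48.2% of all tested genes. Within the tandem clusters 25 of 29 tested genes were lower and 3 higher. Outside them 5 of 17 were lower and 11 higher. Summed over the 30 cluster loci, the level was 765 and 638 TPM at 2 days, against 1486 and 1581 TPM at time 0. Summed over the 19 loci outside the clusters, it was 275 and 290 TPM at 2 days, against 152 and 158 TPM at time 0. The cluster sum was thus lower and the sum of the others higher in both 2-day libraries. The rise of the latter sum was carried by SAUR78, SAUR30, SAUR32 and SAUR9. Their means were 86.6, 43.5, 37.3 and 36.5 TPM at 2 days, against 33.8, 11.4, 11.4 and 14.8 TPM at time 0.

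**Figure D1:**
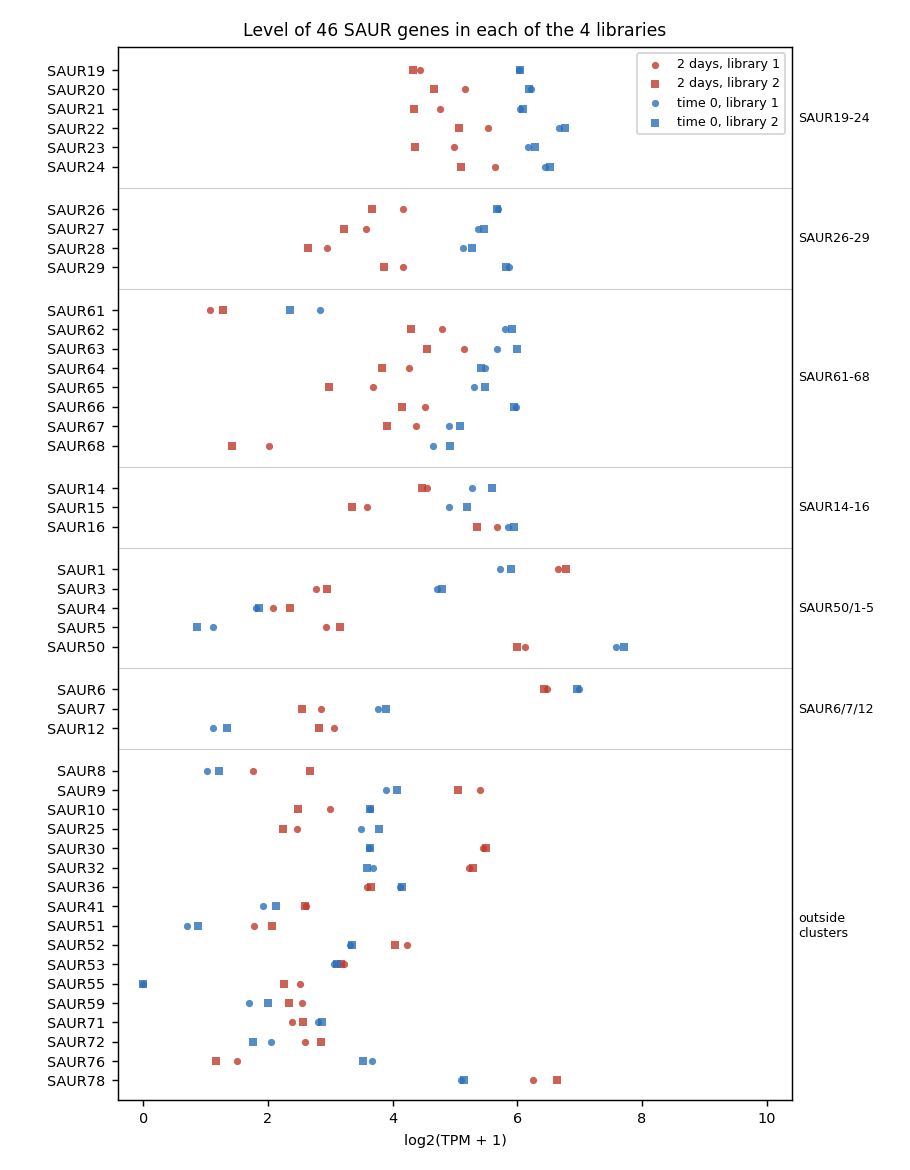
Level of the 46 SAUR genes with a mean of 1 TPM or more, as log2(TPM + 1) on the horizontal axis, with 2-day libraries in red and time 0 libraries in blue (circles for library 1, squares for library 2). In SAUR19-24, SAUR26-29, SAUR61-68 and SAUR14-16 every red point lies left of every blue point of the same gene, while the other 2 clusters and the genes outside clusters hold both orders. Among all tested genes the 2-day libraries lay below in 37.7%.

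All 6 genes of SAUR19-24, the group whose proteins are best known for driving cell expansion, were lower at 2 days. Beside this and the cluster counts below stand 29.5% of all tested genes lower. SAUR19 (AT5G18010) had 20.8 and 19.0 TPM at 2 days, against 64.0 and 64.9 TPM at time 0. SAUR20 (AT5G18020) had 34.7 and 24.4 TPM at 2 days, against 73.9 and 72.1 TPM at time 0. SAUR21 (AT5G18030) had 26.0 and 19.3 TPM at 2 days, against 64.9 and 67.2 TPM at time 0. The time 0 libraries lay close together in these 3 genes, while 2-day library 2 lay below library 1. SAUR22 (AT5G18050), the most abundant of the cluster at time 0, had 45.4 and 32.6 TPM at 2 days, against 101 and 107 TPM at time 0. SAUR23 (AT5G18060) had 30.7 and 19.5 TPM at 2 days, against 71.4 and 76.8 TPM at time 0. SAUR24 (AT5G18080) had 48.9 and 33.1 TPM at 2 days, against 86.5 and 90.6 TPM at time 0. No library of the 2-day group reached the lowest time 0 value in any of the 6 genes, as in 37.7% of all tested genes. Their log2 differences lay between -1.65 for SAUR19 (SE 0.066, limma adjusted p = 2.94e-05) and -1.12 for SAUR24 (SE 0.182, limma adjusted p = 0.00353).

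Reads that fit several copies are divided by RSEM, which makes near-identical copies depend on each other. Of the 50-base windows of the SAUR19 transcript 18.5% also occur in transcripts of SAUR20, SAUR21, SAUR23 and SAUR24, and in the other copies the shared part was 0.6% to 7.1%. The sum over the cluster depends less on this division than a single copy does, though not fully, since the transcripts differ in length and TPM is divided by length. It stood at 206 and 148 TPM at 2 days, against 461 and 479 TPM at time 0, which is 2.65-fold lower.

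The 4 genes of SAUR26-29 were lower as well, by more per gene than those of SAUR19-24. SAUR26 (AT3G03850) had 16.98 and 11.74 TPM at 2 days, against 50.82 and 50.31 TPM at time 0. SAUR27 (AT3G03840) had 10.9 and 8.33 TPM at 2 days, against 40.3 and 43.3 TPM at time 0. SAUR28 (AT3G03830) had 6.72 and 5.24 TPM at 2 days, against 33.8 and 37.5 TPM at time 0. That was the largest change of the cluster, with a log2 difference of -2.40 (SE 0.125, limma adjusted p = 6.4e-05). SAUR29 (AT3G03820) had 16.97 and 13.56 TPM at 2 days, against 57.6 and 55.4 TPM at time 0. The smallest change was that of SAUR26, with a log2 difference of -1.77 (SE 0.166, limma adjusted p = 0.000461), so the 4 estimates spanned 0.63 and their 95% intervals overlap in part. None of the 50-base windows of these 4 transcripts occurs in another gene, which makes division of reads between copies less likely. Only exact matches were counted. The cluster summed to 51.6 and 38.9 TPM at 2 days, against 183 and 187 TPM at time 0, which is 4.08-fold lower. A difference between this change and that of SAUR19-24 was not tested.

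The 8 genes of SAUR61-68 were all lower, with the widest spread among the clusters in which every tested gene was lower. SAUR68 (AT1G29490) had the largest log2 difference of the 46 genes with a pseudocount of 1 TPM, whereas with 0.1 TPM that of SAUR55, listed at 0 at time 0, was larger. SAUR68 had 3.03 and 1.69 TPM at 2 days, against 24.2 and 29.4 TPM at time 0, with a log2 difference of -3.07 (SE 0.216, limma adjusted p = 0.000169). SAUR65 (AT1G29460) had 11.9 and 6.92 TPM at 2 days, against 38.6 and 43.5 TPM at time 0. SAUR66 (AT1G29500) had 21.9 and 16.7 TPM at 2 days, against 62.1 and 60.9 TPM at time 0. These 3 share at most 0.6% of their windows with other genes. SAUR64 (AT1G29450), which shares none, had 18.2 and 13.3 TPM at 2 days, against 43.6 and 41.7 TPM at time 0. SAUR61 (AT1G29420), the least abundant of the cluster, had 1.11 and 1.43 TPM at 2 days, against 6.17 and 4.10 TPM at time 0. Its level is uncertain because 43.5% of its windows match transcripts of other genes on the opposite strand, and the strand setting is not given. Opposite-strand matches also cover 10.3% of the windows of SAUR63, 11.5% of those of SAUR67 and 9.8% of those of SAUR8.

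SAUR62, SAUR63 and SAUR67 are the close copies of this cluster, and share 19.5% to 27.1% of their windows with each other and with SAUR75 on chromosome 5. SAUR62 (AT1G29430) had 26.7 and 18.5 TPM at 2 days, against 54.8 and 59.1 TPM at time 0. SAUR63 (AT1G29440), which promotes elongation of hypocotyls and stamen filaments, had 34.5 and 22.5 TPM at 2 days, against 50.01 and 62.42 TPM at time 0. SAUR67 (AT1G29510) had 19.8 and 14.1 TPM at 2 days, against 28.8 and 33.0 TPM at time 0. The calls of SAUR63 and SAUR67 were lost in fits with a library left out, which also have fewer degrees of freedom, while the log2 differences kept their sign. SAUR63 had a log2 difference of -0.98, against -0.82 without time 0 replicate 2 and -0.68 without 2-day replicate 2. SAUR67 had -0.85, against -0.75 without time 0 replicate 2. SAUR63 had a limma adjusted p of 0.0113, which became 0.0721 without time 0 replicate 2 and 0.0574 without 2-day replicate 2, within 0.00708 to 0.0721 over its alternatives. SAUR67 had a limma adjusted p of 0.00719, which became 0.0543 without time 0 replicate 2, within 0.00422 to 0.0543. The whole cluster summed to 137 and 95.2 TPM at 2 days, against 308 and 334 TPM at time 0, which is 2.77-fold lower.

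SAUR14-16 was the fourth cluster in which every tested gene was lower. SAUR15 (AT4G38850), also known as SAUR-AC1 and a standard reporter of auxin response, had 11.0 and 9.22 TPM at 2 days, against 29.0 and 35.5 TPM at time 0 (log2 difference -1.58, SE 0.132, limma adjusted p = 0.000307). SAUR14 (AT4G38840) had 22.5 and 21.1 TPM at 2 days, against 37.7 and 47.5 TPM at time 0 (log2 difference -0.93, limma adjusted p = 0.00148). SAUR16 (AT4G38860) had 50.1 and 40.1 TPM at 2 days, against 56.5 and 60.7 TPM at time 0. The log2 difference of SAUR16 was -0.38 and its limma adjusted p of 0.034 became 0.0953 without time 0 replicate 1, 0.166 without time 0 replicate 2, 0.0737 without 2-day replicate 2 and 0.071 without the filter on low values, within 0.0125 to 0.166 over its alternatives. The cluster summed to 83.6 and 70.3 TPM at 2 days, against 123 and 144 TPM at time 0.

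Genes in the remaining clusters went both ways, among neighbours with no other protein-coding gene between them. SAUR50 (AT4G34760), which responds to light during seedling greening, was the most abundant of the 49 loci at time 0. It had 68.8 and 62.5 TPM at 2 days, against 190 and 209 TPM at time 0 (log2 difference -1.59, SE 0.076, limma adjusted p = 5e-05). Its neighbour SAUR1 (AT4G34770) had 100 and 109 TPM at 2 days, against 52.0 and 58.7 TPM at time 0 (log2 difference 0.91, SE 0.081, limma adjusted p = 0.00039). SAUR1 thus stood above SAUR50 in both 2-day libraries and below it in both time 0 libraries. SAUR3 (AT4G34790) had 5.84 and 6.67 TPM at 2 days, against 25.3 and 26.6 TPM at time 0 (log2 difference -1.90, limma adjusted p = 4.48e-05). SAUR5 (AT4G34810) had 6.59 and 7.95 TPM at 2 days, against 1.17 and 0.81 TPM at time 0 (log2 difference 2.06, SE 0.155, limma adjusted p = 0.000211). SAUR4 (AT4G34800) lies between them and did not pass (log2 difference 0.37, 95% interval 0.02 to 0.73, limma adjusted p = 0.0583), with 3.23 and 4.09 TPM at 2 days and 2.52 and 2.64 TPM at time 0. Without 2-day replicate 1 it passed (limma adjusted p = 0.0213), within 0.0213 to 0.628 over its alternatives. None of the windows of these 6 transcripts is shared with another gene.

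On chromosome 2 the pattern was similar in kind. SAUR6 (AT2G21210) had 87.7 and 84.6 TPM at 2 days, against 126 and 124 TPM at time 0 (log2 difference -0.53, SE 0.05, limma adjusted p = 0.000484). SAUR7 (AT2G21200) had 6.20 and 4.82 TPM at 2 days, against 12.6 and 13.9 TPM at time 0 (log2 difference -1.14, limma adjusted p = 0.000947). SAUR12 (AT2G21220) had 7.33 and 6.07 TPM at 2 days, against 1.17 and 1.55 TPM at time 0 (log2 difference 1.71, SE 0.148, limma adjusted p = 0.00035). SAUR6 was the most abundant of the 3 in all 4 libraries, and SAUR12, the least abundant at time 0, passed SAUR7 in both 2-day libraries. SAUR6 and SAUR7 share 9.4% and 15% of their windows with each other.

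**Figure D2:**
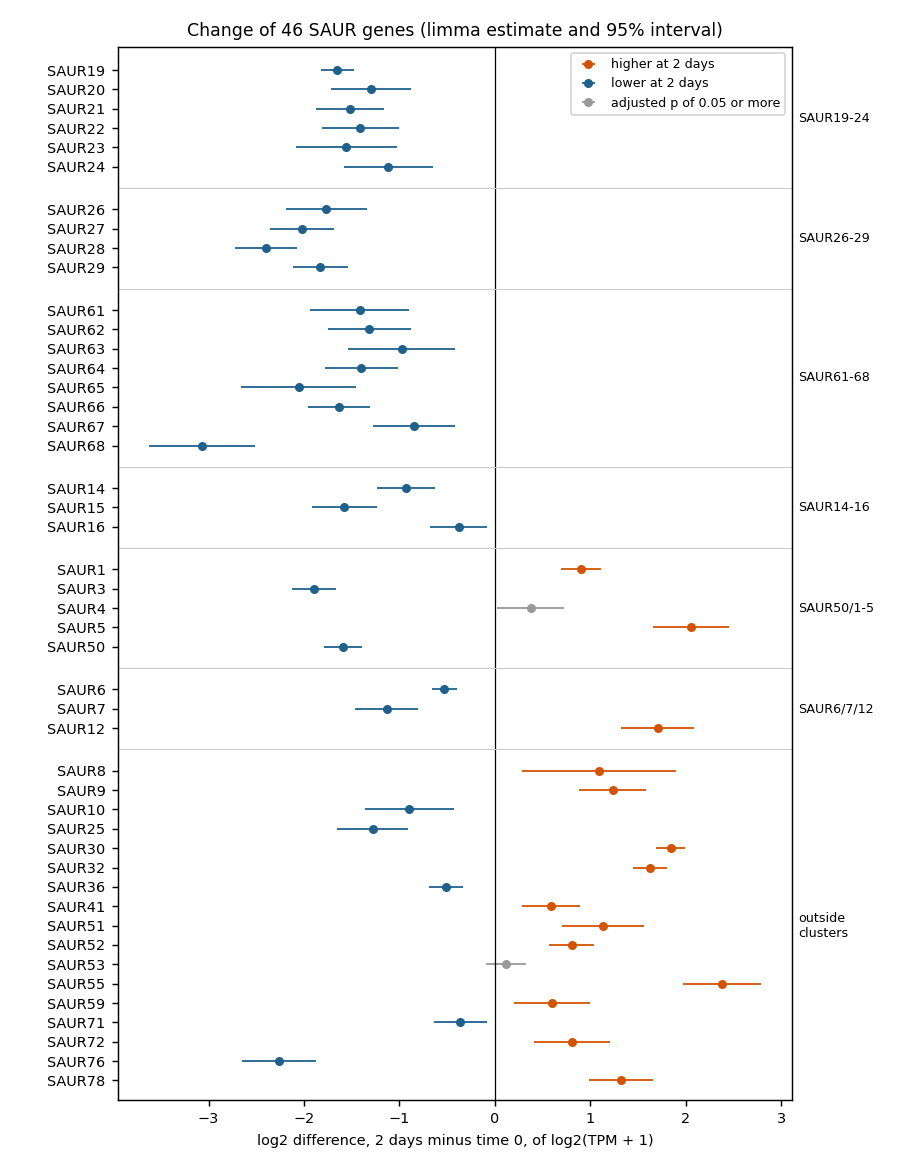
Estimated change of each of the 46 genes, as the log2 difference of log2(TPM + 1) between 2 days and time 0, with its 95% interval from limma (2 libraries per group). In 4 clusters the estimates all lie left of 0, from -3.07 for SAUR68 to -0.38 for SAUR16, whereas SAUR50 and SAUR1 to SAUR5, SAUR6, SAUR7 and SAUR12, and the genes outside clusters lie on both sides.

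The spread of the change within a cluster was set beside the divergence of its copies. In SAUR19-24, with a median coding identity of 91.2%, the log2 differences spanned 0.53, and in SAUR26-29, with 82.0%, they spanned 0.63. In SAUR61-68, with 63.2%, they spanned 2.23, and in SAUR14-16, with 58.5%, they spanned 1.198. In the cluster of SAUR50 and SAUR1 to SAUR5, with 56.2%, the span was 3.95 over 5 tested genes. Its upper end is SAUR5, which passed the limit of 1 TPM only through its level at 2 days. In the cluster of SAUR6, SAUR7 and SAUR12, with 43.1%, the span was 2.84. SAUR19-24 and SAUR26-29, with the closest copies, thus had the narrowest spans. Among the other clusters the spans did not follow the order of identity. The 6 clusters differ in size and in how far RSEM had to divide reads. A link between span and identity was not tested.

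**Figure D3:**
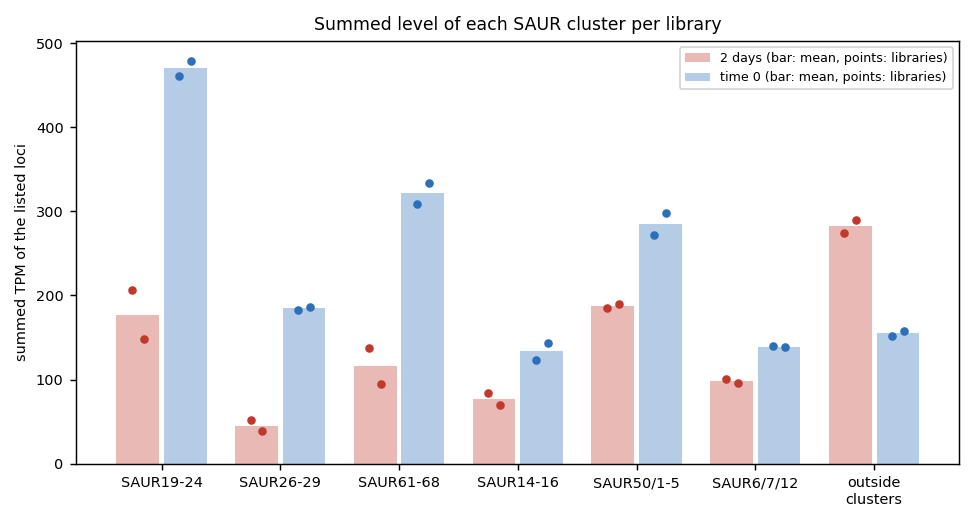
Summed TPM of the listed loci of each cluster and of the 19 loci outside clusters, with bars for the mean of 2 libraries and points for each library (2 days in red, time 0 in blue). Each of the 6 cluster sums is lower in both 2-day libraries, from 1.42-fold for SAUR6, SAUR7 and SAUR12 to 4.08-fold for SAUR26-29, and the sum outside clusters is 1.82-fold higher. That rise is carried by SAUR78, SAUR30, SAUR32 and SAUR9.

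Outside the clusters 11 of 17 tested genes were higher at 2 days, beside 39.2% of all tested genes. Of the 11, SAUR51 and SAUR55 passed the limit of 1 TPM only through their level at 2 days. SAUR30 (AT5G53590) had 42.9 and 44.1 TPM at 2 days, against 11.3 and 11.5 TPM at time 0 (log2 difference 1.84, SE 0.06, limma adjusted p = 1.78e-05). SAUR32 (AT2G46690) had 36.4 and 38.3 TPM at 2 days, against 11.8 and 11.0 TPM at time 0 (log2 difference 1.63, SE 0.07, limma adjusted p = 3.55e-05). Both groups were tight in these genes, and no window of either transcript is shared with another gene. SAUR55 (AT5G50760) had 4.69 and 3.78 TPM at 2 days but is listed at 0 for the pair of time 0 libraries, and it passed with a limma adjusted p of 0.000141. With SAUR5 and SAUR12 these had the 5 largest rises on the log2(TPM + 1) scale. With a pseudocount of 0.1 TPM SAUR51 took the place of SAUR32, and with 5 TPM SAUR78 and SAUR9 took those of SAUR55 and SAUR12.

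SAUR78 (AT1G72430), a relative of SAUR76 and linked with it to ethylene receptor signalling, had 75.1 and 98.1 TPM at 2 days, against 33.3 and 34.3 TPM at time 0 (log2 difference 1.32, SE 0.131, limma adjusted p = 0.000551). SAUR9 (AT4G36110), whose protein inhibits clade D phosphatases, had 41.0 and 32.0 TPM at 2 days, against 13.8 and 15.9 TPM at time 0 (log2 difference 1.24, limma adjusted p = 0.000856). SAUR78 and SAUR1 were the most abundant SAUR genes at 2 days together with SAUR6. The pair SAUR51 and SAUR52 rose together. SAUR52 (AT1G75590) had 17.7 and 15.5 TPM at 2 days, against 8.97 and 9.16 TPM at time 0. SAUR51 (AT1G75580) had 2.44 and 3.17 TPM at 2 days, against 0.62 and 0.83 TPM at time 0.

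The other 4 rises, of SAUR8, SAUR41, SAUR59 and SAUR72, were in genes with a mean of under 5 TPM, and each call was lost under some alternative. SAUR8 (AT2G16580) had 2.39 and 5.36 TPM at 2 days, against 1.04 and 1.33 TPM at time 0, with a limma adjusted p of 0.0279 and a range of 0.00678 to 0.127 over its alternatives. Its adjusted p was 0.127 with time 0 replicate 1 left out, 0.0865 with time 0 replicate 2 left out, 0.106 after quantile normalization and 0.0642 with no filter. SAUR59 (AT3G60690) had 4.86 and 4.08 TPM at 2 days, against 2.24 and 3.0 TPM at time 0, with a limma adjusted p of 0.0192 that ranged from 0.0184 to 0.109. For SAUR59 the adjusted p was 0.108 with time 0 replicate 1 left out, 0.109 with 2-day replicate 1 left out, 0.0579 with 2-day replicate 2 left out and 0.0813 after quantile normalization. SAUR41 (AT1G16510), which promotes cell expansion, had 5.11 and 5.05 TPM at 2 days, against 2.77 and 3.36 TPM at time 0 (limma adjusted p = 0.00814, and 0.0627 without time 0 replicate 1, within 0.00738 to 0.0627). SAUR72 (AT3G12830) had 5.05 and 6.18 TPM at 2 days, against 3.15 and 2.40 TPM at time 0 (limma adjusted p = 0.00642, and 0.0555 without 2-day replicate 2, within 0.00654 to 0.0555 over its alternatives).

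The falls outside the clusters were 5 of 17, near the 29.5% of all tested genes that were lower. SAUR76 (AT5G20820), the relative of SAUR78, moved the other way from it, with 1.84 and 1.24 TPM at 2 days, against 11.7 and 10.5 TPM at time 0 (log2 difference -2.26, SE 0.15, limma adjusted p = 0.000136). On the log2(TPM + 1) scale SAUR76 came after SAUR68 and SAUR28 and before SAUR65 and SAUR27, and these are the 5 largest falls on it. With a pseudocount of 0.1 TPM SAUR76 came before SAUR28, and with 5 TPM it was no longer among the 5 largest. SAUR25 (AT4G13790) had 4.55 and 3.71 TPM at 2 days, against 10.2 and 12.8 TPM at time 0 (log2 difference -1.28, limma adjusted p = 0.000897). SAUR36 (AT2G45210), also known as SAG201 and a promoter of leaf senescence, had 11.1 and 11.6 TPM at 2 days, against 16.4 and 16.7 TPM at time 0 (log2 difference -0.51, limma adjusted p = 0.0018). The change of SAUR36 was thus among the smaller falls and exceeded the spread between its libraries.

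SAUR10 (AT2G18010) had 7.0 and 4.56 TPM at 2 days, against 11.4 and 11.4 TPM at time 0, and its limma adjusted p of 0.00819 became 0.0547 without time 0 replicate 1 and 0.0529 without time 0 replicate 2, within 0.00409 to 0.0547 over its alternatives. SAUR71 (AT1G56150) had 4.20 and 4.90 TPM at 2 days, against 5.97 and 6.26 TPM at time 0, with a limma adjusted p of 0.0316 and a range of 0.00992 to 0.171. Its adjusted p was 0.125 with time 0 replicate 1 left out, 0.171 with time 0 replicate 2 left out, 0.08 with 2-day replicate 1 left out and 0.0583 with no filter, so the call was lost in each. SAUR53 (AT1G19840) did not pass, with 8.36 and 7.98 TPM at 2 days and 7.32 and 7.58 TPM at time 0 (log2 difference 0.12, 95% interval -0.09 to 0.33, limma adjusted p = 0.254). Its direction reversed after quantile normalization, to -0.05.

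**Figure D4:**
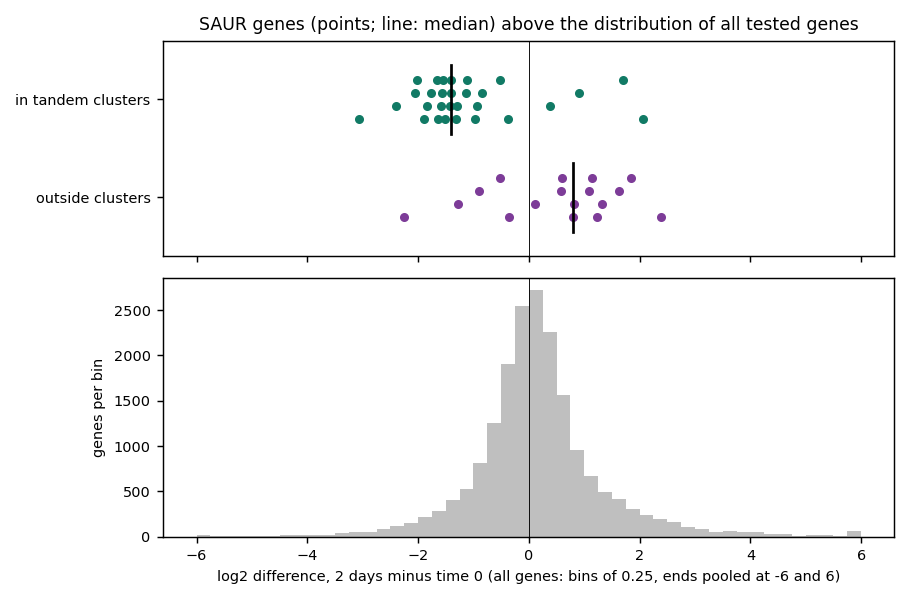
Log2 differences (2 days minus time 0) of the 29 tested genes in tandem clusters and the 17 tested genes outside them, as points with their medians as lines, above a histogram of the 19078 genes tested. The cluster genes centre on -1.41 and the others on 0.80, while the histogram centres on 0.09.

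The median log2 difference was -1.41 over the 29 tested cluster genes and 0.80 over the 17 tested genes outside clusters, beside 0.09 over all tested genes. A log2 difference of -1 or lower was found in 20 of the 29 cluster genes, in 2 of the 17 others and in 10.6% of all tested genes. Level entered this contrast. At 5 TPM or more on average, 24 of 25 in clusters were lower and 1 higher (median -1.52), and outside clusters 5 were lower, 5 higher and 1 not past the threshold of 11 (median 0.12). At 1 to 5 TPM on average, 6 of 6 outside clusters were higher, and of 4 in clusters 2 were higher, 1 lower and 1 not past. Of these, SAUR51 and SAUR55 outside clusters and SAUR5 in a cluster passed the limit only through their level at 2 days. Among all tested genes, at any level, 39.2% were higher and 29.5% lower, and shares at these levels were not computed. No test sets clusters against other genes, since genes are not replicates and copies of a cluster share ancestry and reads.

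Library 2 of the 2-day group lay below library 1 in 17 of the 18 genes of SAUR19-24, SAUR26-29 and SAUR61-68, and in 69.5% of all genes called lower and 59.6% of all tested genes. Outside the clusters it lay below in 9 of 17 genes. Without that library the median of the cluster genes was -1.18, and without 2-day library 1 it was -1.61. Over the 4 fits that leave out a library, the median of the genes outside the clusters ran from 0.69 to 0.79.

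A further 30 annotated SAUR loci were not on the list, of which 12 had a mean of at least 1 TPM. Of these 7 were lower at 2 days, 2 higher and 3 did not pass, beside 29.5% of all tested genes lower and 39.2% higher. A mean of 1 TPM in each group was reached by 9 of the 12, and SAUR46, SAUR77 and SAUR45 passed the limit only through the group in which they were high. SAUR46 had 0.35 and 0.12 TPM at 2 days, against 6.08 and 4.58 TPM at time 0. SAUR60 had 1.9 and 1.6 TPM at 2 days, against 10.14 and 10.15 TPM at time 0. Opposite-strand matches cover 63.8% of its windows. SAUR75, the close copy of SAUR62, SAUR63 and SAUR67, had 2.40 and 1.91 TPM at 2 days, against 6.02 and 6.63 TPM at time 0. SAUR75 thus fell like the 3 copies with which it shares windows. SAUR13, which lies beside SAUR14, had 10.37 and 12.85 TPM at 2 days, against 34.98 and 39.59 TPM at time 0. Its level is uncertain, since opposite-strand matches cover 88.1% of its windows. SAUR49, next to SAUR50, went the other way from it, with 17.3 and 17.7 TPM at 2 days, against 12.8 and 12.4 TPM at time 0 (log2 difference 0.44, limma adjusted p = 0.0027). SAUR45 had 4.30 and 4.02 TPM at 2 days, against 0.10 and 0 TPM at time 0. The 18 loci below the limit reached a mean of at most 0.868 TPM.

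Clade D holds the phosphatases on which SAUR proteins act. Of 9 clade D genes 5 were lower, 3 higher and 1 did not pass, beside 29.5% of all tested genes lower and 39.2% higher. APD7 (AT5G02760) had 43.0 and 34.7 TPM at 2 days, against 275 and 276 TPM at time 0 (log2 difference -2.80, limma adjusted p = 2.46e-05). APD9 (AT5G66080) had 13.6 and 10.7 TPM at 2 days, against 70.1 and 69.8 TPM at time 0 (log2 difference -2.44). AT3G51370 and AT3G17090 were lower by smaller amounts, with log2 differences of -1.01 and -0.88, and APD8 (AT5G06750) was higher with 0.95. The 9 transcripts summed to 398 and 369 TPM at 2 days, against 770 and 776 TPM at time 0.

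Of 11 plasma membrane H+-ATPase genes 7 were tested, with 3 higher, 2 lower and 2 not past the threshold, which is near the 39.2% higher and 29.5% lower among all tested genes. AHA2 (AT4G30190) had 695 and 633 TPM at 2 days, against 342 and 332 TPM at time 0 (log2 difference 0.98, SE 0.066, limma adjusted p = 0.000149). AHA1 (AT2G18960) had 412 and 417 TPM at 2 days, against 301 and 297 TPM at time 0 (log2 difference 0.47, limma adjusted p = 0.000622). These are the main pumps of the plant, and they made up most of the list's TPM in all 4 libraries. AHA5 and AHA8 were lower, with log2 differences of -0.72 and -0.86.

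Upstream of SAUR transcription, the auxin receptors of the TIR1/AFB group, the auxin response factors that activate transcription and the BZR and PIF growth factors were called in both directions, as were all tested genes (39.2% higher and 29.5% lower). Among 6 receptors there were 3 rises, 2 falls and 1 gene not past the threshold. The largest rises were those of AFB2 (log2 difference 0.61) and AFB5 (0.47), and the falls those of AFB1 and TIR1 (-0.47). AFB1 had 37.5 and 33.8 TPM at 2 days, against 105 and 104 TPM at time 0 (log2 difference -1.53, limma adjusted p = 3.93e-05). Of 5 activating response factors 2 were higher (ARF8 with a log2 difference of 0.90 and ARF5 with 0.42), 2 lower (ARF19 with -0.54 and ARF6 with -0.44) and 1 did not pass. Of 7 growth factors 4 were higher, 2 lower and 1 did not pass. PIF4, which activates SAUR genes in warmth and shade, had 81.1 and 68.3 TPM at 2 days, against 157 and 160 TPM at time 0 (log2 difference -1.08, limma adjusted p = 0.000299). BZR1, the other fall, had a log2 difference of -0.73, and the largest rises were those of PIF1 (0.77) and BES1 (0.71).

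Promoters of the listed loci were searched for 5 motifs in the 300 bases from 250 before to 50 after the annotated start, on both strands. The first was TGTCTC, the auxin response element, and the second its high-affinity form TGTCGG. The others were CACGTG, called the G-box, CGTGTG, bound by BZR1, and CATGTG, an element bound by PIF proteins that reads CACATG on the other strand. Matches of different motifs may share bases. CATGTG occurred in 26 of 49 SAUR promoters and in 12.9% of 27443 protein-coding promoters. It occurred in 8 of 8 promoters of SAUR61-68 and 4 of 4 of SAUR26-29, in 3 of 6 of SAUR19-24, in 2 of 3 of SAUR14-16 and in 4 of 19 outside clusters. It occurred as well in 4 of 6 promoters of the cluster of SAUR50 and SAUR1 to SAUR5, among them those of SAUR1 and SAUR5, which rose, and in 1 of 3 of SAUR6, SAUR7 and SAUR12. TGTCTC occurred in 8 of 49 SAUR promoters (16.3%) and in 14.2% of all, and these 8 all belong to clusters. TGTCGG occurred in 2 of 49 (5.1% of all promoters), CACGTG in 1 of 49 (7.7% of all) and CGTGTG in 1 of 49 (6.5% of all). Of the 26 loci with CATGTG 20 were lower, 5 higher and 1 not past the threshold. Of the 23 without it 20 were tested, with 10 lower, 9 higher and 1 not past. Among all tested genes 29.5% were lower and 39.2% higher. Cluster loci make up 22 of the 26, and a link between the motif and the change was not tested. Tandem copies inherit their promoters together and do not count as separate cases, and a match does not show a bound site.

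The 30 bases around the CATGTG match closest upstream of the start are shown for the clusters in which every promoter holds it, 5′ to 3′ on the coding strand of TAIR10.1, with the motif in capitals, first for SAUR61-68.
SAUR61: aggtttctaatcCACATGttgtgagtagac
SAUR62: tagaaacataatCATGTGttgtgtctggtt
SAUR63: tagaaacataagCATGTGttgtgtcgggtt
SAUR64: aagattcatactCACATGgtcatgtcttct
SAUR65: atttaataccccCACATGgtcatgtttctt
SAUR66: aattttgataccCACATGatcatgtcttct
SAUR67: aggattcataccCACATGatcttgtcttct
SAUR68: caaagacaaaagCATGTGttatgtctggtt

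The match begins 10 bases before the start in SAUR62 and 104 bases before it in SAUR65. This closest match reads CACATG in SAUR61 and SAUR64 to SAUR67, and CATGTG in SAUR62, SAUR63 and SAUR68. SAUR62 to SAUR65 and SAUR68 hold the other form as well, elsewhere in the searched bases. The matches shown therefore need not be the same site in each copy. In SAUR26-29 the match begins 19 bases before the start in SAUR28 and 231 bases before it in SAUR27.
SAUR26: tgagaacataacCATGTGaggaaaattttg
SAUR27: tatagcatttgtCATGTGatatgttcttgg
SAUR28: tgataacaaaacCATGTGaaaaactttgtc
SAUR29: ttatagcattgtCATGTGatcctatttcta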

How the data were processed

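The authors deposited a table of TPM for 37686 genes in 4 libraries. Per the submitters' processing notes, the tools were RSEM 1.3.2, STAR 2.7.2b and Trim Galore 0.5.0, and the build was TAIR10. Strand setting and annotation release: not given in the sources used here. TPM keeps no depth, so no counting interval or count test was applied. Columns were matched to samples by title and description.

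Genes with a mean of 1 TPM or more (19078) were transformed to log2(TPM + 1) and fitted in R 4.3.3 by limma 3.58.1 (trended empirical Bayes, Benjamini-Hochberg over all genes, called at an adjusted p below 0.05). Log2 differences on this scale understate the change of low genes. With 4 libraries, 2 residual degrees of freedom remain for a gene. The fit was tested on simulated data. Members and lists were chosen with earlier results of these data known. Values per library are given for SAUR19-24, SAUR26-29 and SAUR61-68, the 5 largest rises and falls and the members at the limit, and other tested members were named as well. Names, coding sequences and promoters came by locus from the RefSeq annotation of TAIR10.1 (Python 3.11.15, Biopython 1.88, mafft 7.526). Since the named build is TAIR10, no coordinates are given. AT5G01830, which carries the symbol SAUR21 but encodes an ARM repeat protein, was left out of the family. Shared windows are 50 bases long. Alternatives were other pseudocounts, filters and scalings, a replicate block and each library left out. Figures were drawn with matplotlib 3.10.9.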

Additional observations from a re-analysis of the deposited data

How the results depend on the processing

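Of 46 SAUR genes, 35 kept their direction and their side of the threshold under every alternative they were run under, which was all 11 for 30 of them and 10 for the 5 that lie below a mean of 5 TPM (pseudocounts of 0.1 and 5 TPM, no filter, a mean of 5 TPM, quantile normalization, rescaling that leaves out the 100 most abundant and all organelle genes, a replicate block and each of 4 libraries left out). The other 11 are given with their values in the report, and SAUR53, which did not pass, reversed to -0.049 after quantile normalization. Calls in the listed genes stayed at 30 lower and 14 higher with either pseudocount, the rescaling and the block, and were 29 and 13 without the filter and 30 and 12 after quantile normalization. From a mean of 5 TPM 6 were higher (29 lower), since fewer genes were tested. The median outside clusters moved from 0.80 to 0.45 with a pseudocount of 5, 0.70 without the filter, 0.12 from a mean of 5 TPM, 0.55 after quantile normalization and 0.69 after rescaling, and to 0.69 to 0.79 with a library left out. The cluster median ran from -1.61 to -1.18 with a library left out and from -1.52 to -1.21 elsewhere. Over all genes, quantile normalization moved the median from 0.09 to -0.06 and the calls to 6385 higher and 7187 lower, and rescaling to -0.02, with 6495 higher and 6696 lower. The labels give both groups replicates 1 and 2, and deviations of same-numbered libraries did not go together (correlation -0.07). With 2 libraries in a group this cannot show whether the numbers pair them. With a replicate block 7101 genes were higher and 5283 lower, with 30 SAUR genes lower and 14 higher. Depth is unknown, so the precision of low genes cannot be stated.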
